A study of Mus musculus with 2 samples.

Results

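Purinergic and adenosine signalling was followed in restimulated macrophages through 10 genes: the ATP-gated channels P2rx4 and P2rx7, the nucleotide receptors P2ry2, P2ry6, P2ry12, P2ry13 and P2ry14, the adenosine receptors Adora2a and Adora2b, and the ectonucleotidase Entpd1. They were taken by symbol, and all 10 were found, each once, among 55536 gene entries. The study sequenced polyadenylated RNA from mouse macrophages of the C57BL/6J strain, grown as primary cells from bone marrow. Its only group received Lipid A, the part of bacterial lipopolysaccharide that Tlr4 recognises, at 100 ng/mL for 12 h, was kept without it for 12 h, and received 100 ng/mL again for 30 min. Another label gives lipoprotein A as the treatment, and which of these was meant is not settled there. The group had 2 biological replicates, each 1 library made from 1 µg of RNA. Each replicate has its own biosample but both point to 1 donor record, and it is not stated whether they were separate animals, so the spread between them may be partly technical. No untreated library was analysed here, so all values describe the restimulated state and none describes a response to Lipid A.

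Cells release ATP and other nucleotides when they are damaged, stressed or activated, and neighbouring cells read them through surface receptors. P2X receptors are cation channels opened by ATP, whereas P2Y receptors couple nucleotides to G proteins. Ectonucleotidases cut ATP to AMP and then to adenosine, which acts on its own receptors, and in macrophages the A2 receptors are known for restraining inflammatory output through cyclic AMP.

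The libraries held 41938419 counts (replicate 1) and 30780681 counts (replicate 2), and their counts differed beyond sampling noise, so they are not one library deposited more than once. Levels are given in TPM, a unit that scales counts by transcript length and library size, from the alignment-derived gene table unless the FASTQ-derived table is named, and a pair of values always has replicate 1 before replicate 2. A gene was called detected at 1 TPM or more in both libraries. All 6 macrophage markers were detected, with a summed level of 15378 and 17269 TPM. Markers of other cells were mostly low: 2 of 8 neutrophil markers were detected (summed level 75.1 and 9.88 TPM, Ly6g at 0 counts), 0 of 4 mast cell markers, 1 of 5 B cell markers, 1 of 5 T cell markers (58.7 and 38.4 TPM, nearly all of it Cd4 at 58.2 and 37.7 TPM), 1 of 5 dendritic cell markers and 2 of 4 endothelial markers (11.8 and 24.7 TPM). All 6 stromal markers were detected, with a summed level of 556 and 633 TPM. In such bulk RNA, fewer cells of a type and less RNA per cell cannot be told apart.

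Of the 10 genes, 9 were detected, against 48.7% of all 22028 protein-coding genes. Levels of 10 TPM or more in each library were measured for 6 of the 10 (30.3% of protein-coding genes), and P2rx4 and P2ry6, 2 of the 10, stood at 100 TPM or more in each (5.56%). The order by mean level was P2rx4, P2ry6, P2ry14, Entpd1, P2rx7, P2ry13, P2ry12, Adora2a, P2ry2 and Adora2b. The values of the 2 libraries overlapped between P2ry14 and Entpd1 and between Adora2a and P2ry2. By this rule neither pair was separated, and every other neighbouring pair was. Within each library Adora2a was still above P2ry2, whereas P2ry14 and Entpd1 changed places. In the FASTQ-derived table P2ry6 (145.6 and 90.21 TPM) overlapped its neighbour there, Entpd1 (101.3 and 78.16 TPM). P2ry14 (78.99 and 80.7 TPM) and Entpd1 still overlapped in that table. Adora2a (4.902 and 7.503 TPM) and P2ry2 (3.567 and 4.254 TPM) did not. P2rx4 alone made up 62.2% and 59% of the summed level of the 10 genes, a sum of 1182 and 949.5 TPM.

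**Figure D1:**
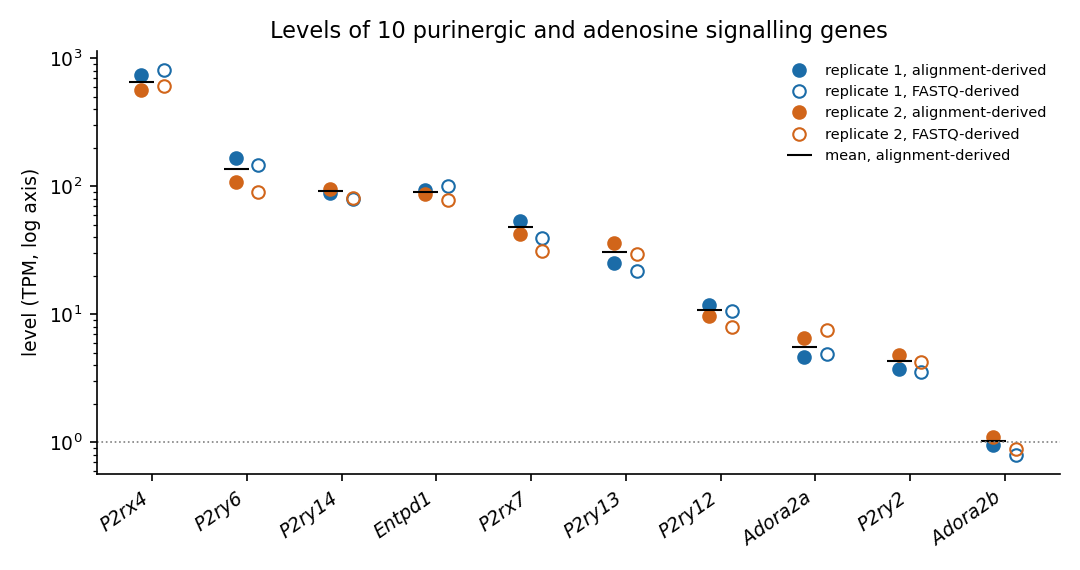
Level of each gene in TPM on a log axis, with filled points for the alignment-derived table, open points for the FASTQ-derived table, blue for replicate 1 and orange for replicate 2; bars are the mean of both replicates in the alignment-derived table and the dotted line is 1 TPM. P2rx4 stands highest at 734.6 and 559.8 TPM, and Adora2b lies at the dotted line with 0.95 and 1.11 TPM.

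P2rx4 (ENSMUSG00000029470.15, chr5:122707544-122729738 in mm10, plus strand) encodes an ATP-gated calcium-permeable channel that macrophages hold largely in lysosomes. Its level was 734.6 and 559.8 TPM, or 647 ± 124 TPM (SD, n = 2). Replicate 1 was the higher library, and both values placed the gene far above the other receptors: by mean level it ranked 182 among the protein-coding genes. The FASTQ-derived table gave 808.4 and 602 TPM, in the same order. P2rx7 (ENSMUSG00000029468.17, chr5:122643911-122691432, plus strand), 16111 bp upstream on the same strand, encodes the channel that needs high ATP and whose potassium efflux is known to engage the Nlrp3 inflammasome. Its level was 53.79 and 42.65 TPM, or 48.2 ± 7.88 TPM (SD, n = 2). The channel gene P2rx4 thus stood 13.7 times above P2rx7 in replicate 1 and 13.1 times in replicate 2 by TPM, and 20.4 and 19.3 times in the FASTQ-derived table.

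The other 5 P2X genes were below detection. P2rx1 was at 0.71 and 1.07 TPM and P2rx6 at 0.81 and 1.07 TPM, so each passed 1 TPM in replicate 2 only. P2rx5 was at 0.17 and 0.29 TPM, P2rx3 at 0.07 and 0.09 TPM, and P2rx2 at 0.08 and 0 TPM. Among the subunits of this channel family, transcripts at 10 TPM or more were therefore measured for P2rx4 and P2rx7 and for none of these 5.

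Most of the P2rx4 level was shared by 3 annotated transcripts whose coding sequences differ by whole exons. P2rx4-201 has 12 exons and a coding sequence of 388 codons. P2rx4-202 lacks its exon 6 (81 bases, 27 codons, chr5:122724594-122724674) and P2rx4-206 lacks its exon 10 (66 bases, 22 codons, chr5:122727399-122727464), and both losses keep the reading frame. The annotated lengths of P2rx4-201, P2rx4-202 and P2rx4-206 are 2702, 1887 and 1111 bases, so they also differ outside these exons. Their shares therefore do not measure the use of exon 6 and exon 10 alone. The exons are shown because the receptor forms that the libraries could hold differ by exactly these letters, which come from the GENCODE M21 transcript on the plus strand:
P2rx4 exon 6: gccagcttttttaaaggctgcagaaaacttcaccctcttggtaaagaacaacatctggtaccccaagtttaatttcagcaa
P2rx4 exon 10: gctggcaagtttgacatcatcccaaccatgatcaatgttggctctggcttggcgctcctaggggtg

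The alignment-derived table assigned 39% and 39.9% of the P2rx4 level to P2rx4-202, 32.6% and 39.2% to the full-length P2rx4-201, and 25.3% and 17.7% to P2rx4-206. The FASTQ-derived table assigned 8.41% and 10.8% to P2rx4-201, with 50.3% and 51.7% on P2rx4-202 and 38.5% and 34% on P2rx4-206. Within each table the 2 replicates were close for P2rx4-202, but P2rx4-206 was at 186 and 99 TPM in the alignment-derived table. Over the full-length form the tables differed by far more than the replicates did. Of the 31-base words in P2rx4-201, 719 (26.9%) occur in no other transcript of the gene, whereas P2rx4-202 and P2rx4-206 hold none of their own. Exon 6 is kept in P2rx4-206 and exon 10 in P2rx4-202, so words within these exons are not among the 719. Those words thus do not tell whether either exon was kept. P2rx4-204, which lacks both exons, was at 0.22 and 0 TPM. How much of P2rx4 was full length was thus not settled by these tables. Transcripts from 1 cluster of annotated start sites held 99% and 99.2% of the level. Every annotated coding transcript of the gene starts in that cluster, so this share does not settle where transcription began.

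For P2rx7 the complete coding sequence of 595 codons belongs to P2rx7-203, which has 13 exons. It took 55.7% and 51.2% of the gene's level in the alignment-derived table and 84.4% and 73.9% in the FASTQ-derived one. The gap lay in P2rx7-205, a single exon of 2103 bases annotated as a retained intron, all 2103 of which lie inside the last exon of P2rx7-203. It lies beyond the last coding base of P2rx7-203, and each of its 31-base words also occurs in another transcript of the gene. It took 31.3% and 32.8% in the alignment-derived table (16.8 and 14 TPM), whereas the FASTQ-derived table left it almost nothing in replicate 1 and 4.46% in replicate 2. Summed over protein-coding transcripts with a complete coding sequence, P2rx7 was at 36.4 and 28.6 TPM, which overlaps P2ry13 at 25.1 and 36 TPM. That sum leaves out the level assigned to P2rx7-205. P2rx7-208, whose start lies in another first exon and which encodes 592 codons, was at 0 TPM in both libraries, and at 0.658% and 1.13% of the gene in the FASTQ-derived table. The coding parts of these first exons are shown to set P2rx7-203 against P2rx7-208, with the start codon in capitals (GENCODE M21, plus strand, chr5:122644074-122644198 and chr5:122650424-122650539):
P2rx7-203: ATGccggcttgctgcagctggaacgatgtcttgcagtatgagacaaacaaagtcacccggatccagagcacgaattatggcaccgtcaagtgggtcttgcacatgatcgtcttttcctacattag
P2rx7-208: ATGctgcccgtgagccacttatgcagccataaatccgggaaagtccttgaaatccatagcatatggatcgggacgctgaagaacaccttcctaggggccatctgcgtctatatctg

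**Figure D2:**
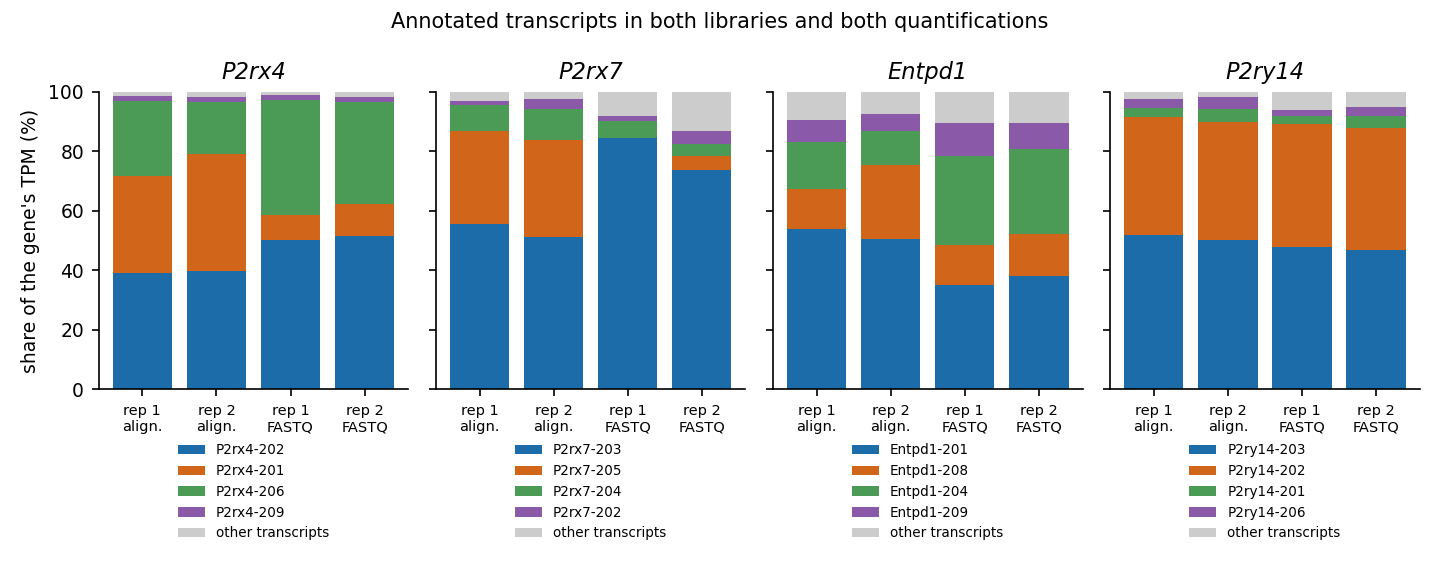
Share of each gene's TPM by annotated transcript, in percent, for P2rx4, P2rx7, Entpd1 and P2ry14, with 1 bar for each replicate in the alignment-derived (align.) and the FASTQ-derived (FASTQ) table. P2rx4-201, P2rx7-205 and Entpd1-204 take different shares in the 2 tables, whereas the bars of P2ry14 are nearly alike.

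Among the P2Y receptors, P2ry6 (ENSMUSG00000048779.5, chr7:100937630-100974649, minus strand), the receptor for UDP, was the most abundant at 164.7 and 107.3 TPM, or 136 ± 40.6 TPM (SD, n = 2). Replicate 1 was higher by 1.5 times. P2ry2 (ENSMUSG00000032860.5, chr7:100996568-101012866, minus strand), which binds ATP and UTP and is known as a sensor of dying cells, lies 21918 bp away on the same strand. It was at 3.74 and 4.84 TPM, or 4.29 ± 0.78 TPM (SD, n = 2), with replicate 2 higher. The neighbours therefore stood 44 times apart by TPM in replicate 1 and 22.2 times in replicate 2. Both are receptors that signal mainly through Gq, and Gnaq was at 31.83 and 28.76 TPM. For P2ry6, the 328-codon transcript P2ry6-201 held 99.7% and 98.4% of the level, and for P2ry2 the transcripts with the complete 373-codon sequence held 100% and 92.3%.

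P2ry12, P2ry13 and P2ry14 lie beside each other on chromosome 3, all on the minus strand, and are Gi-coupled. P2ry14 (ENSMUSG00000036381.13, chr3:59113855-59153618), which recognises UDP-sugars, was at 88.51 and 95.29 TPM, or 91.9 ± 4.79 TPM (SD, n = 2). P2ry13 (ENSMUSG00000036362.2, chr3:59207892-59210882), an ADP receptor, was at 25.13 and 36.02 TPM, or 30.6 ± 7.7 TPM (SD, n = 2). P2ry12 (ENSMUSG00000036353.13, chr3:59216272-59262871), the ADP receptor of platelets and resting microglia, was at 11.88 and 9.75 TPM, or 10.8 ± 1.51 TPM (SD, n = 2). The order P2ry14, P2ry13, P2ry12 held in both libraries and both tables. By TPM, P2ry14 was 3.52 and 2.65 times P2ry13, and P2ry13 was 2.12 and 3.69 times P2ry12.

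All 3 genes lie within Med12l (chr3:59005825-59318682), which is annotated on the opposite strand. No source used here states whether reads were counted by strand, so reads from a gene and one that overlaps it on the opposite strand may be mixed. Med12l itself was at 0.4 and 0.55 TPM (110 and 113 counts), below each of the 3 receptors. Because P2ry12 marks platelets and microglia, the markers of those cells are given beside it. Of 6 megakaryocyte and platelet markers 2 were detected (summed level 263 and 117 TPM), nearly all of it Pf4 at 259.5 and 115.4 TPM, while Itga2b was at 0.91 and 0.67 TPM and Gp9 at 0.12 and 0 TPM. Of the markers of microglia, Tmem119 was at 3.91 and 3.98 TPM, Olfml3 at 3.88 and 4.34 TPM, Sall1 at 0.04 and 0.05 TPM and Siglech at 0.32 and 0.12 TPM. The part of such cells in the P2ry12 level was not tested.

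The 3 neighbours differed in how their levels were assigned to annotated starts. P2ry13 has 1 annotated transcript, of 337 codons. All of the P2ry12 level sat on 4 transcripts with the same 347-codon sequence but separate starts: the one from chr3:59220259 took 56% and 41.4%, the one from chr3:59227581 took 24.8% and 27%, and those from the distal starts at chr3:59262831 and chr3:59262871 took 19.2% and 31.6%. In the FASTQ-derived table the same starts took 51.7% and 30.8%, 21.9% and 30%, and 26.4% and 39.2%, so the distal starts led there in replicate 2. P2ry14 was divided between a distal start at chr3:59153492 (P2ry14-203, 51.9% and 50.3%) and starts at chr3:59130622 and chr3:59130624 (42.8% and 44.1%). The FASTQ-derived table gave 47.9% and 46.8% against 44% and 45.1%. Such shares rest on few bases. Of the 31-base words in P2ry14-203, 27 (1.7%) occur in no other transcript of the gene. P2ry14-202 from chr3:59130622 and P2ry12-202 from chr3:59220259 hold none of their own. The coding sequence is the same for the distal start and for those at chr3:59130622 and chr3:59130624. In all, 4 transcripts of P2ry14 that share its 338 codons held 95.7% and 95.5% of the level. P2ry14-206, from a start at chr3:59130762, encodes 347 codons and held 2.9% and 4%. The replicates differed by less for P2ry14 than for P2ry12, whose counts were 636 and 400 against 3571 and 2946.

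The windows of 250 bases upstream of RefSeq start sites (GRCm38.p6) are shown for the highest gene, P2rx4 (chr5:122707294-122707543, plus strand), for P2rx7 (chr5:122643677-122643926, plus strand) and for the distal start of P2ry14 (chr3:59153493-59153742, minus strand), each in the direction of transcription. Capitals mark matches to TGANTCA, a pattern bound by AP-1 factors:
P2rx4 upstream: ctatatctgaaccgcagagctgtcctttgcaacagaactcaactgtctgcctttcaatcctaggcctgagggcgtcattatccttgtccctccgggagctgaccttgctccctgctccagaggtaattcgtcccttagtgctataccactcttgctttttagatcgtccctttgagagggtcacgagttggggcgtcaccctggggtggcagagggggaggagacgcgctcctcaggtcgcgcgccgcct
P2rx7 upstream: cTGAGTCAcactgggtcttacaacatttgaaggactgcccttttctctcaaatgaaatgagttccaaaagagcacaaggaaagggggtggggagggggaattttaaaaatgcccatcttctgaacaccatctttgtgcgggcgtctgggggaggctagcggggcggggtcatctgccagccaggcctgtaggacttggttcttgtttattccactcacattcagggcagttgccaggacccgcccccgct
P2ry14 upstream: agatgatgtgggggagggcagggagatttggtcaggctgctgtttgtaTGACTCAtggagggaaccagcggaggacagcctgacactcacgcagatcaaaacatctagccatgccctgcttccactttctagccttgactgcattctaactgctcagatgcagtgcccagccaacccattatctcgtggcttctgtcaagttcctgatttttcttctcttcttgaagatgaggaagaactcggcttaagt

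RefSeq windows were given for 8 of the 10 genes, 14 windows in all, with none for P2ry6 or Adora2a. Both strands were searched for TGANTCA, for a kB-like pattern, for the cyclic AMP response pattern TGACGTCA and for the PU.1-like pattern GAGGAAGT. TGANTCA was found in 3 of the windows, 1 of P2rx7 and 2 of P2ry14, and 6.75% of all 32851 windows hold it. The kB-like pattern was found once, upstream of the distal P2ry12 start on the opposite strand, and 4.65% of all windows hold it. TGACGTCA, held by 1.55% of all windows, and GAGGAAGT, held by 2.44%, were not found in these 14. A match describes letters only, and factor binding was not measured in these libraries.

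The remaining P2Y genes were mostly low. P2ry1, another ADP receptor, was at 0.57 and 0.63 TPM, and P2ry4 had 0 counts in each library, for which counting error alone leaves room for 0.0715 and 0.0975 CPM (counts scaled to library size). Of the genes that carry a P2Y name but are closer to lysophospholipid receptors, P2ry10 was at 0.24 and 0.23 TPM and P2ry10b at 7.1 and 7.17 TPM. Gpr171, an orphan receptor gene beside P2ry12 to P2ry14, was at 1.19 and 0.8 TPM.

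By mean level the adenosine receptor genes ranked 8 and 10 of the 10 genes, with P2ry2 between them. Adora2a (ENSMUSG00000020178.6, chr10:75316877-75334784, plus strand), the Gs-coupled receptor with high affinity for adenosine, was at 4.62 and 6.53 TPM, or 5.58 ± 1.35 TPM (SD, n = 2), on 267 and 315 counts. Replicate 2 was higher. The 410-codon transcript Adora2a-201 held 87.2% and 97.5% of the level, and 77.6% and 77% in the FASTQ-derived table. Adora2b (ENSMUSG00000018500.2, chr11:62248984-62266453, plus strand), its lower-affinity relative, was at 0.95 and 1.11 TPM, or 1.03 ± 0.11 TPM (SD, n = 2), on 42 and 37 counts. It was the only one of the 10 genes not detected, because replicate 1 lay just under 1 TPM, and Adora2a stood 4.86 and 5.88 times above it by TPM. Of the Gi-coupled receptors, Adora3 was at 3.01 and 2.26 TPM (164 and 74 counts) and Adora1 had 0 and 2 counts. Of the genes downstream of A2 receptors, the G protein gene Gnas was at 435.6 and 489.8 TPM, adenylyl cyclase Adcy7 at 53.21 and 43.53 TPM, the protein kinase A subunit Prkaca at 57.36 and 48.72 TPM, and the cyclic AMP phosphodiesterase Pde4b at 20.39 and 32.73 TPM, each above Adora2a in both libraries. The adenylyl cyclase Adcy9, at 5.6 and 3.87 TPM, was not.

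Entpd1 (ENSMUSG00000048120.16, chr19:40612366-40741602, plus strand) encodes CD39, the surface enzyme that converts ATP and ADP to AMP. Its level was 93.62 and 86.2 TPM, or 89.9 ± 5.25 TPM (SD, n = 2), close to that of P2ry14 in both libraries. Its leading coding transcripts carry different first coding exons. Entpd1-201 starts at chr19:40659770 and encodes 510 codons, and Entpd1-204 starts upstream at chr19:40612397 and encodes 539 codons. The coding parts of these first exons give the proteins different amino ends (start codon in capitals, GENCODE M21, plus strand, chr19:40659885-40659900 and chr19:40612421-40612523):
Entpd1-201: ATGgaagatataaagg
Entpd1-204: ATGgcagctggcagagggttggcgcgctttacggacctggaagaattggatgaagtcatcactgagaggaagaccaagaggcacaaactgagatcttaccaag

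Entpd1-201 led in both tables, with 53.9% and 50.5% of the level in the alignment-derived table and 35.2% and 38% in the FASTQ-derived one. Entpd1-204 took 15.9% and 11.5% in the former and 30% and 28.3% in the latter. Of the 31-base words in Entpd1-204, 26 (1.09%) occur in no other transcript of the gene. A further 13.5% and 24.9% (12.7 and 21.5 TPM) sat on Entpd1-208, a processed transcript of 204 bases, and rested on 5 counts in each library, since TPM divides by a short length. Over protein-coding transcripts with a complete coding sequence, Entpd1 was at 65.3 and 53.4 TPM, or 59.4 ± 8.41 TPM (SD, n = 2), and no longer overlapped P2ry14, which was at 87.3 and 94.8 TPM.

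The next enzyme of the path, Nt5e (CD73), which converts AMP to adenosine, was at 0.11 TPM in both libraries on 11 and 9 counts. The gene for CD39 was thus well above detection and the gene for CD73 below it. Of 13 other ectonucleotidase genes, 5 were detected, and the highest were Entpd4 at 13.38 and 12.59 TPM and Entpd6 at 10.49 and 10.27 TPM, enzymes of internal membranes or secretion. Enzymes that use adenosine or its product were present: Adk, which makes AMP from adenosine, was at 24.83 and 26.58 TPM, Ada, which makes inosine, at 8.06 and 5.35 TPM, and Pnp, which cleaves inosine, at 552 and 661.7 TPM. Nucleoside transporters were led by Slc29a3 of lysosomes at 111.6 and 112.1 TPM, Slc28a2 at 49.47 and 52.88 TPM and Slc29a1 at 47.86 and 34.72 TPM. Of the routes by which nucleotides leave cells, the volume-regulated channel gene Lrrc8a was at 10.06 and 9.54 TPM and the hemichannel gene Panx1 at 8.23 and 10.16 TPM. The nucleotide kinase genes Nme2 (220 and 258.4 TPM), Nme1 (26.57 and 28.58 TPM) and Ak1 (7.83 and 11.17 TPM) were all detected. In all, 20 of the 42 other purinergic genes were detected, with 9 of the 42 at no less than 10 TPM in each library and 3 at no less than 100 TPM. Over all protein-coding genes these shares are 48.7%, 30.3% and 5.56%, so the share of this list that was detected was near the background.

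**Figure D3:**
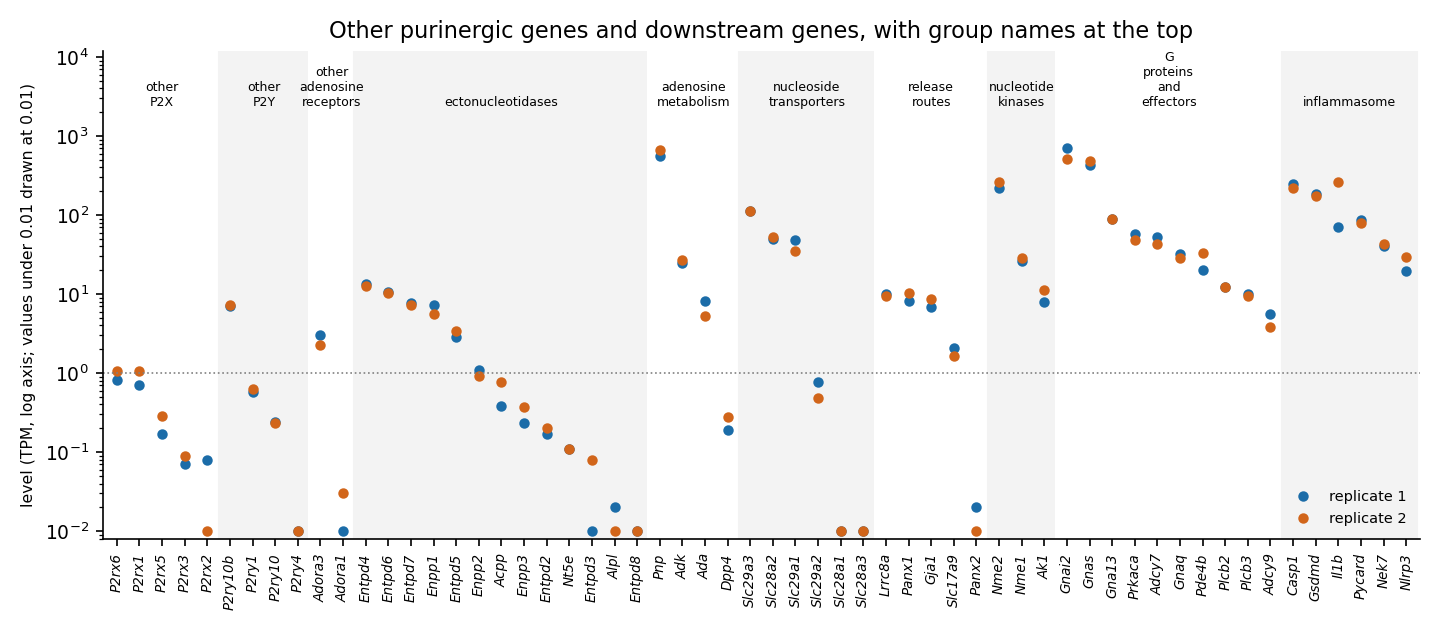
Level in TPM on a log axis of the 42 other purinergic genes and of 16 downstream genes, grouped by role, with blue for replicate 1 and orange for replicate 2; values under 0.01 TPM are drawn at 0.01 and the dotted line is 1 TPM. The other P2X genes and Nt5e lie near or below the line, whereas the G protein, effector and inflammasome genes all lie above it.

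All 10 genes chosen for G proteins and effectors and all 6 inflammasome genes were detected. Gnai2, the Gi subunit gene for P2ry12, P2ry13 and P2ry14, was at 701.7 and 513.8 TPM, Gna13 at 88.94 and 89.08 TPM, Plcb2 at 12.21 and 12.4 TPM and Plcb3 at 10.04 and 9.52 TPM. Of the genes that act after P2X7, Casp1 was at 250.2 and 218.7 TPM, Gsdmd at 186.1 and 171.7 TPM, Pycard at 85.62 and 78.45 TPM, Nek7 at 40.08 and 43.48 TPM and the sensor Nlrp3 at 19.3 and 29.76 TPM. Il1b, the cytokine that this path releases, was at 71.44 and 263.1 TPM and, of these 16 genes, was the only one that differed at least 2-fold between the libraries.

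Between the libraries, none of the 10 genes differed by 2-fold or more, a size reached by 2.46% of the 12471 genes with at least 20 counts in each library (1.94% higher and 0.521% lower in replicate 2). By the sign of the ratio 5 were higher in replicate 2 and 5 lower, and 46.4% of the counted genes were higher. With 1 library on each side no test was made and these ratios have no replicate check. Their intervals are exact (Clopper-Pearson, 95%) and cover counting error only, since reads are not independent molecules. On the log2 scale of replicate 2 over replicate 1, the largest differences were Adora2a at 0.69 (0.45 to 0.93), P2ry6 at -0.59 (-0.64 to -0.53) and P2ry13 at 0.57 (0.47 to 0.67). These lay at percentiles 95.4, 3.19 and 93.4 of the counted genes. P2ry2 was at 0.35 (0.10 to 0.61) and P2ry14 at 0.18 (0.11 to 0.25), both higher in replicate 2.

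The other 4 genes with an interval on 1 side of 0 were lower in replicate 2. P2rx7 was at -0.34 (-0.40 to -0.27), P2rx4 at -0.25 (-0.27 to -0.22), P2ry12 at -0.22 (-0.40 to -0.03) and Entpd1 at -0.21 (-0.27 to -0.16). The interval of Adora2b (-0.41 to 0.94) held 0, so that no difference was detectable at its 42 and 37 counts. In total, 4 intervals lay above 0 and 5 below, while 23.3% and 31.2% of the counted genes had such intervals. By class, both P2X genes and Entpd1 had intervals below 0 and the P2Y genes were divided. Among the detected adenosine receptors, Adora2a was above 0 and Adora3, which is not one of the 10, was at -0.69 (-1.11 to -0.29). The median over all 10 was -0.02, which is also the median over all counted genes.

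Early response genes are given beside these ratios, because earlier results of these data had shown them to differ between the libraries. All 21 that were counted, Il1b among them, had a log2 ratio above 0 (median 1.45, range 0.35 to 2.70), and 18 reached 2-fold. Fos was at 162.8 and 359.2 TPM, Tnf at 450.9 and 1198.1 TPM and Nfkbia at 237 and 566.2 TPM. Of the downstream genes, Pde4b at 0.71 (0.62 to 0.79) and Nlrp3 at 0.68 (0.59 to 0.77) lay above 0, like Adora2a and P2ry13. Others lay below 0, such as Adcy9 at -0.51 (-0.70 to -0.32) and Gnai2 at -0.40 (-0.43 to -0.38). By the sign of the ratio, 6 G protein and effector genes were higher in replicate 2 and 4 lower. The inflammasome genes were divided, 3 higher and 3 lower. The summed platelet, neutrophil, T cell (58.7 and 38.4 TPM) and B cell (7.92 and 4.01 TPM) markers were lower in replicate 2. So were P2ry6, P2rx7, P2rx4, P2ry12 and Entpd1, and the stromal sum was higher (556 and 633 TPM). Of the macrophage markers, Itgam (-0.61), Mertk (-0.49), Cd68 (-0.37), Csf1r (-0.25) and Adgre1 (-0.09) also had a log2 ratio below 0. Lyz2 was at 0.50, and the macrophage sum was higher in replicate 2 (15378 and 17269 TPM). The endothelial sum was also higher, through Kdr at 5.57 and 20.84 TPM, whereas Cdh5 was at 1.5 and 0.52 TPM, Pecam1 at 4.61 and 3.28 TPM and Tek at 0.07 and 0.08 TPM. The part of these differences in the ratios of the 10 genes was not tested.

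**Figure D4:**
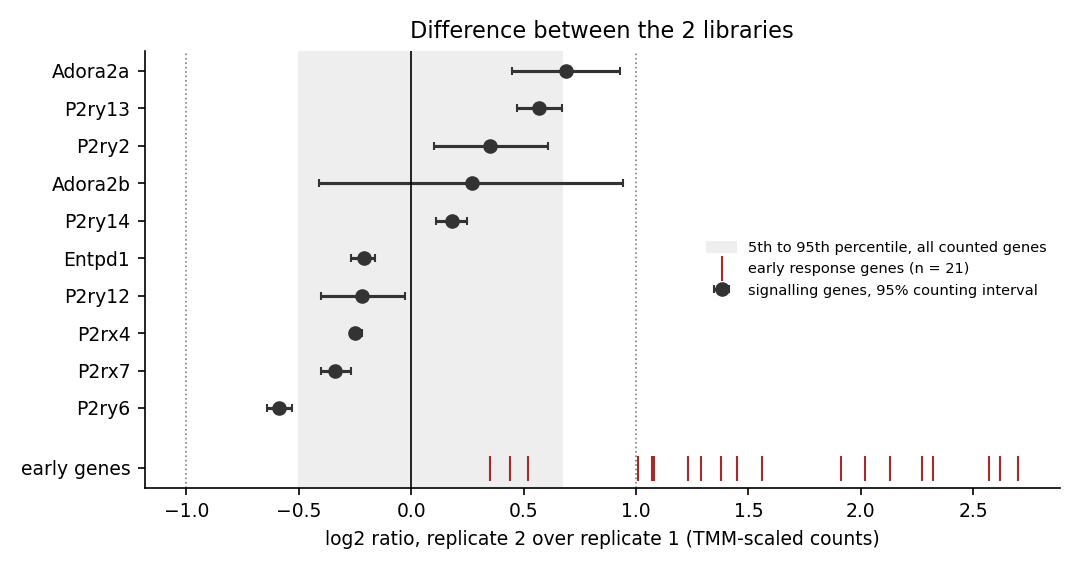
Log2 ratio of replicate 2 over replicate 1 for the 10 genes, as points with exact 95% counting intervals, with the 5th to 95th percentile of all 12471 counted genes in grey (-0.50 to 0.67), dotted lines at 2-fold, and 21 early response genes as red ticks. All 10 points lie inside the 2-fold lines, whereas 18 of the early genes lie beyond the upper one.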

How the data were processed

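PolyA RNA-seq of 2 libraries of 1 group was analysed, with no comparison between conditions. The authors deposited, per the file headers, gene and transcript tables of expected counts and TPM from an alignment to the transcriptome, and a transcript table of estimated counts and TPM from 4 FASTQ files. These used mm10 with GENCODE M21, per the deposited notes. The aligner and quantifier were not given in the sources used here.

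Expected counts were rounded. Entries that name no gene (0.0526% and 0.0667% of counts) stayed out of library sizes. A count of 0 allows up to 3 counts, 0.0715 and 0.0975 CPM. Ratios used TMM factors (edgeR 4.0.16, R 4.3.3) with 0.5 added, and DESeq2 1.42.0 size factors as an alternative. No count model was fitted. The ratio steps were tested on simulated data. Start sites within 100 bp were joined, and words of 31 bases were compared between transcripts. Tables were handled in pandas 2.3.3 and numpy 2.4.6 under Python 3.11.15, intervals came from scipy 1.17.1 and plots from matplotlib 3.10.9.

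Genes and lists were chosen with earlier results of these data known. Named genes were the 10, related genes with at least 10 TPM in a library, all other P2X, P2Y and adenosine receptors, the downstream genes, 3 early genes, and genes overlapping or next to the 10. Nt5e, Ada, the macrophage markers and P2ry12's cell markers were named after their values were seen. Protein sequences were not used here. One microglial marker and 1 neighbouring gene are not reported here.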

Additional observations from a re-analysis of the deposited data

How the results depend on the processing

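The 10 genes stayed under 2-fold in every setting tried, and no ratio changed sign. Detected were 9 in the FASTQ-derived table too, 10 at 0.5 TPM and 7 at 5 TPM; leaving out 1 replicate gave 9 to 10. Of the 42 related genes, 24 were detected at 0.5 TPM, 17 at 5 TPM, 21 in the FASTQ-derived table, and 21 to 22 with 1 replicate. The median log2 ratio of the 10 genes was -0.02 and became -0.21 with at least 100 counts in each library, where Adora2b, the only one below that minimum, left. DESeq2 size factors, total counts, no filter, a larger prior and the FASTQ-derived table gave -0.05 to -0.02. Of 40 alternative ratios for single genes, 39 stayed within their counting interval, and P2rx4 moved to -0.28 in the FASTQ-derived table. That table moved the level of 4 genes by more than the SD between replicates (P2rx7 to 35.4 TPM, P2ry12 to 9.25, P2ry14 to 79.8 and Adora2b to 0.85) and the leading transcript share of 7, and the cause was not tested. The complete-coding-sequence levels and the start-site shares were added after seeing the data. No paired analysis was possible because there was 1 group and no test. Depth limits Adora2b most, with 42 and 37 counts.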
